A study of Mus musculus with 2 samples.

Results

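The microRNA genes described here are the mir-200 family (Mir200a, Mir200b, Mir200c, Mir141 and Mir429), Mir203 and Mir205, which are best known from epithelial cells. They were chosen by name, through the Ensembl identifiers that GENCODE gives to these genes, and all 7 had a row among the 1973 gene rows of the deposited tables. The samples were whole hindbrain of B6NCrl mouse embryos at embryonic day 13.5 (13.5 days), healthy, untreated as far as the labels say, with males and females pooled. Short RNA (below 30 bases per the labels) was sequenced from 2 biological replicates, which form 1 group and share a donor identifier, so the study sets no condition against another and the spread between the libraries may be partly technical. Replicate 1 held 3006571 reads counted on microRNA genes and replicate 2 held 4508244.

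A microRNA is cut from an RNA hairpin, and 1 of its arms, the guide, is loaded into an Argonaute protein and pairs with messenger RNAs mainly through its seed, bases 2 to 8. The mir-200 family keeps cells epithelial by repressing ZEB1 and ZEB2, transcription factors that silence E-cadherin, and these factors in turn repress the mir-200 genes. In the nervous system the family is known from the differentiation of olfactory neurons. Mir203 limits the stem cell program of stratified epithelia such as skin by repressing the transcription factor p63, and Mir205 is a marker of basal epithelial cells and of progenitors in skin.

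The guide arms, from RefSeq (GRCm38.p6), are shown because their seeds split the family into sets that differ at a single base. The seed is in capitals.
mmu-miR-200b-3p: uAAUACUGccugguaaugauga
mmu-miR-200c-3p: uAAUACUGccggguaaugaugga
mmu-miR-429-3p: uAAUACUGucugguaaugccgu
mmu-miR-200a-3p: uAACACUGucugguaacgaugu
mmu-miR-141-3p: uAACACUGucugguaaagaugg
mmu-miR-203-3p: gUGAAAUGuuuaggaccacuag
mmu-miR-205-5p: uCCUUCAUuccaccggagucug

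Mir200b, Mir200c and Mir429 share the seed AAUACUG, while Mir200a and Mir141 share AACACUG. Counted from 1 at the 5′ end, the change from Mir200b to Mir200a inside the seed is U4C. Among the 1738 mature microRNAs of the RefSeq table no other carries either seed, and the seeds of Mir203 and Mir205 are each found once. Between members of the family the guide arms differed at 2 to 5 of 22 compared bases, and the closest pairs were Mir200b with Mir200c and Mir200a with Mir141, at 2 differences each. No stretch of 20 bases in any of the 7 hairpins occurs in the hairpin of another gene row that had a GENCODE sequence. Hairpins without a row and the rest of the genome were not searched. Reads that matched several places were set aside by the authors, 33.9% and 34.5% of reads in replicates 1 and 2. How many of them came from these genes was not tested, and the tables count a hairpin as a whole, so the arms are not told apart.

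On GRCm38 the family lies in 2 clusters, both on the minus strand. Mir200b (ENSMUSG00000065549.2, chr4:156055681-156055750), Mir200a (ENSMUSG00000065400.1, chr4:156054896-156054985) and Mir429 (ENSMUSG00000065427.1, chr4:156053905-156053987) follow each other in that order of transcription, with 695 and 908 bases between neighbouring hairpins. They sit in introns of the protein-coding gene Ttll10 and within the non-coding gene Gm13648, in whose exon Mir429 lies. Mir200c (ENSMUSG00000065462.2, chr6:124718322-124718390) precedes Mir141 (ENSMUSG00000065474.1, chr6:124717914-124717985) by 336 bases, both in an intron of the non-coding gene Gm15884, and Mir141 also overlaps an exon of the unclassified gene Gm29008. Mir205 (ENSMUSG00000065533.1, chr1:193507463-193507530) is exonic in the non-coding gene 4631405K08Rik on the same strand. Mir203 (ENSMUSG00000065574.1, chr12:112130880-112130955, plus strand) overlaps no gene of another class. Overlap with other microRNA genes, on either strand, was not searched.

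All 7 genes reached 10 counts or more in each library and so passed as detected, against 18% of all gene rows. Their sum was 801 CPM in replicate 1 and 688 in replicate 2, where CPM is counts per 1000000 counts on gene rows, or 744 ± 79.7 CPM (SD, n = 2). That was 0.0744% of the counted reads. Mir203 alone made up 64.9% of the members' counts in replicate 1 (95% exact Clopper-Pearson interval 62.9 to 66.8) and 73.6% in replicate 2 (72.0 to 75.1). The mir-200 family made up 29.1% (27.3 to 31.0) and 17.8% (16.5 to 19.2), and Mir205 the remaining 6.02% (5.11 to 7.05) and 8.61% (7.65 to 9.65). For each of these shares the intervals of the libraries did not overlap. Shares of a sum move together, and the levels below show where the libraries differed. Here and below, intervals cover counting error only, since reads amplified by PCR without molecular identifiers are not independent molecules. Levels of different genes are compared as read counts. How evenly the library preparation captured different microRNAs was not tested, so these counts need not rank the molecules in the tissue.

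Mir203, the regulator of skin stem cells, stood far above the others in both libraries, at 519 CPM in replicate 1 (1561 counts, 95% exact Poisson interval 494 to 546) and 506 CPM in replicate 2 (2281 counts, 485 to 527). Its mean of 513 ± 9.36 CPM ranked 119 among the 356 detected genes, and it was the only member above their median level of 166 CPM. Mir205, the basal epithelial microRNA, stood at 48.2 CPM in replicate 1 (145 counts, 40.7 to 56.7) and 59.2 CPM in replicate 2 (267 counts, 52.3 to 66.8), a mean of 53.7 ± 7.78 CPM and rank 241. Mir203 thus exceeded Mir205 by 10.8-fold in replicate 1 and 8.54-fold in replicate 2.

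**Figure D1:**
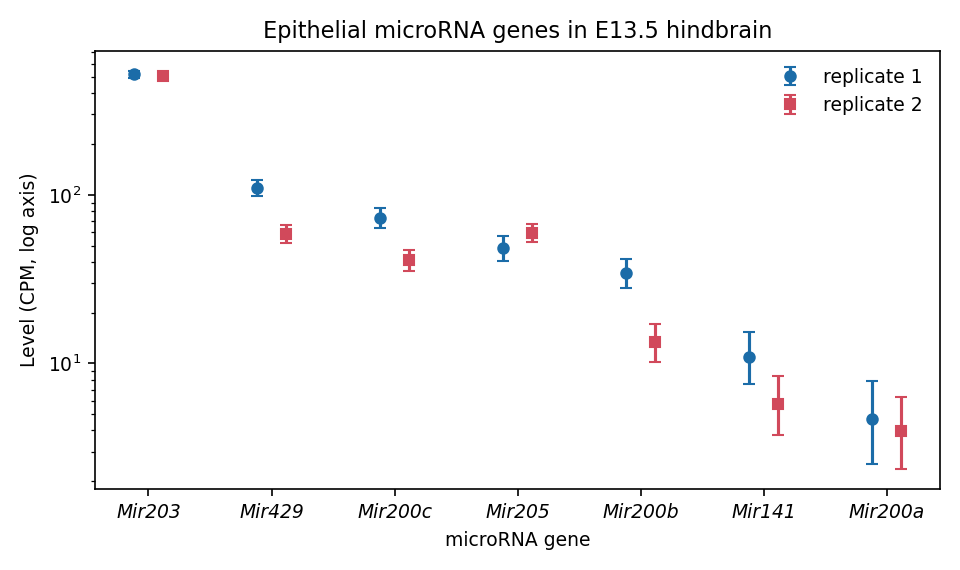
Level of each microRNA gene in CPM on a log axis, with circles for replicate 1, squares for replicate 2 and bars for the 95% exact Poisson interval of counting error. Mir203 stands above 500 CPM in both libraries and Mir200a below 5 CPM, while Mir205 lies below Mir429 and Mir200c in replicate 1 and beside Mir429 in replicate 2.

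Within the mir-200 family the members with the seed AAUACUG carried nearly all counts. Mir429 was highest, at 110 CPM in replicate 1 (332 counts, 98.9 to 123) and 58.6 CPM in replicate 2 (264 counts, 51.7 to 66.1). Mir200c followed with 72.8 CPM (219 counts, 63.5 to 83.2) and 41.0 CPM (185 counts, 35.3 to 47.4). Mir200b had 34.3 CPM (103 counts, 28.0 to 41.5) and 13.3 CPM (60 counts, 10.2 to 17.1). All of these were higher in replicate 1 than in replicate 2, with intervals that did not meet.

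The members with the seed AACACUG were the lowest of the 7. Mir141 had 11.0 CPM in replicate 1 (33 counts, 7.56 to 15.4) and 5.77 CPM in replicate 2 (26 counts, 3.77 to 8.45). Mir200a had 4.66 CPM (14 counts, 2.55 to 7.81) and 3.99 CPM (18 counts, 2.37 to 6.31). For both genes the intervals of the libraries overlapped, and the counts are too few for a fine comparison. A count of 0 would allow up to 0.998 CPM in replicate 1 and 0.665 CPM in replicate 2, so both lay above that limit.

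Summed by seed, the AAUACUG set reached 218 CPM in replicate 1 and 113 CPM in replicate 2, against 15.6 and 9.76 CPM for the AACACUG set. The AACACUG set was 6.70% of the family's counts in replicate 1 (95% exact Clopper-Pearson interval 4.97 to 8.82) and 7.96% in replicate 2 (5.84 to 10.5). A difference between the libraries in the balance of the seeds was not detectable at this depth.

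In order of mean level the genes ran Mir203 at 513 ± 9.36 CPM, Mir429 at 84.5 ± 36.7, Mir200c at 56.9 ± 22.5, Mir205 at 53.7 ± 7.78, Mir200b at 23.8 ± 14.8, Mir141 at 8.37 ± 3.68 and Mir200a at 4.32 ± 0.469 CPM (SD, n = 2 for each). Divided by hairpin length the order did not change, from 674 CPM per 100 hairpin bases for Mir203 to 4.81 for Mir200a. Mir429 exceeded Mir200c within each library, by 1.52-fold in replicate 1 and 1.43-fold in replicate 2, with intervals that did not meet, although their ranges over both libraries overlapped. Mir205 could not be placed against either, since Mir200c exceeded it in replicate 1 and fell below it in replicate 2, and Mir429 exceeded it in replicate 1 and lay beside it in replicate 2. The ranges of the other neighbours in the order did not overlap across the 2 libraries. Their counting intervals did overlap for Mir141 and Mir200a in both libraries, and for Mir205 and Mir200b in replicate 1, so these places are less certain.

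Each cluster held a high and a low member. From the chromosome 4 cluster, Mir429, the last hairpin, supplied 73.9% of counts in replicate 1 (95% exact Clopper-Pearson interval 69.6 to 77.9) and 77.2% in replicate 2 (72.4 to 81.5). Mir200b, the first hairpin, supplied 22.9% (19.1 to 27.1) and 17.5% (13.7 to 22.0), and Mir200a, between them, 3.12% (1.71 to 5.18) and 5.26% (3.15 to 8.19). On chromosome 6 Mir200c supplied 86.9% (82.1 to 90.8) and 87.7% (82.5 to 91.8), with Mir141 as the rest. These proportions overlapped between the libraries for every member, and a change in the make-up of a cluster was not detectable at this depth.

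**Figure D2:**
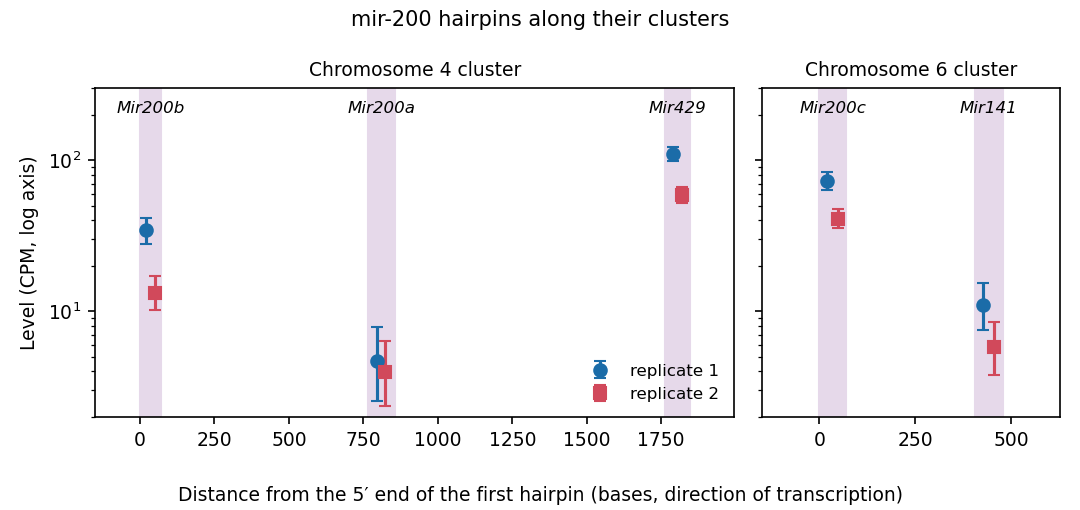
Level of each mir-200 hairpin in CPM on a log axis against its distance in bases from the 5′ end of the first hairpin of its cluster, in the direction of transcription. Shaded bands are the hairpins, circles and squares are replicates 1 and 2, and bars are 95% exact Poisson intervals. In both clusters a high and a low hairpin lie side by side, Mir429 against Mir200a and Mir200c against Mir141.

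The hairpins of the highest and lowest member of the chromosome 4 cluster are shown with the guide arm in capitals, since reads of both arms enter the same count.
Mir429 hairpin: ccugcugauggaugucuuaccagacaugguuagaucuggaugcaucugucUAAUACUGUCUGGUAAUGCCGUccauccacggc
Mir200a hairpin: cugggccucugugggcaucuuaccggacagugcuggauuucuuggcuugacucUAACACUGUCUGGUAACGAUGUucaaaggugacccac

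These guide arms share a stretch of 12 bases and differ at 4 of 22 positions, while the counts of Mir429 exceeded those of Mir200a by 23.7-fold in replicate 1 and 14.7-fold in replicate 2. Unequal levels among neighbouring hairpins were common in these libraries. Among 44 clusters of detected microRNA genes on 1 strand with at most 10000 bases between neighbours, the highest member exceeded the lowest by a median of 18.6-fold in mean CPM. The chromosome 4 cluster, at 19.5-fold, lay below the median of 31.6-fold for the 6 clusters with 3 detected genes. The chromosome 6 cluster, at 6.80-fold, lay below the median of 13.6-fold for the 29 clusters with 2. These sets of clusters, here and below, include the mir-200 cluster that is compared with them.

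Between the libraries the mir-200 family differed by more than counting error, while for Mir203 and Mir205 such a difference was not detectable. The family summed to 233 CPM in replicate 1 (701 counts, 95% exact Poisson interval 216 to 251) and 123 CPM in replicate 2 (553 counts, 113 to 133), a mean of 178 ± 78.1 CPM (SD, n = 2). Replicate 1 was 1.90-fold higher (exact binomial interval 1.70 to 2.13). Separately the chromosome 4 cluster had 149 and 75.9 CPM, 1.97-fold higher in replicate 1 (1.71 to 2.27), and the chromosome 6 cluster 83.8 and 46.8 CPM, 1.79-fold higher (1.49 to 2.16). The clusters on different chromosomes thus differed between the libraries by a similar factor. Mir203 had a log2 ratio of replicate 2 over replicate 1 of -0.04 (-0.13 to 0.06). For Mir205 it was 0.30 (-0.00072 to 0.60). Neither was outside counting error, though the interval of Mir205 only just held 0. A difference beyond counting error was not particular to the mir-200 family. Of the comparison lists below, only the neuronal list had an interval that held 0 (-0.01 to 0.03). With 1 library on each side no test of a condition exists, and the ratios compare these libraries only. In bulk tissue fewer cells of a type and less RNA per cell cannot be told apart.

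Gene by gene, Mir200b had the lowest log2 ratio of the family, -1.36 (exact binomial interval -1.85 to -0.89). Mir141 stood at -0.93 (-1.73 to -0.14), Mir429 at -0.92 (-1.15 to -0.68) and Mir200c at -0.83 (-1.12 to -0.54). Mir200a, the least counted member, stood at -0.22 (-1.31 to 0.90), an interval that holds both 0 and the values of its cluster mates. Among clusters of 3 detected genes the ratios spanned a median of 0.58 on the log2 scale, and on chromosome 4 they spanned 1.14. On chromosome 6 they spanned 0.10, against a median of 0.20 for clusters with 2 genes.

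Of the 7 members, 4 were over 1.5-fold lower in replicate 2, all of the mir-200 family, against 5.06% of the 356 detected genes (18 genes). None was over 1.5-fold higher, against 4.21% of detected genes, and 6 of 7 were lower in value, against 47.2%. The median log2 ratio was -0.83 for the 7 and 0.02 for all detected genes. Genes with few counts scattered more, since 20% of those with a mean count of 10 to 50, the range of Mir141 and Mir200a, were over 1.5-fold lower. In the range of 50 to 200 counts, which holds Mir200b, the share was 3.33%, and in that of 200 to 1000 counts, which holds Mir429, Mir200c and Mir205, it was 4.76%. Of the 301 genes with a mean count of at least 50, 7 (2.33%) were over 1.5-fold lower, and 3 of these were members. Among the members in this range, Mir200b, Mir429 and Mir200c were past that fold, and Mir203 and Mir205 were not. The non-members past it were Mir208b, Mir451a, Mir214 and Mir679, named here after their values were seen. Since the members of a cluster share a locus, and the family was already known to be lower in replicate 2 when it was chosen, these numbers describe the libraries.

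**Figure D3:**
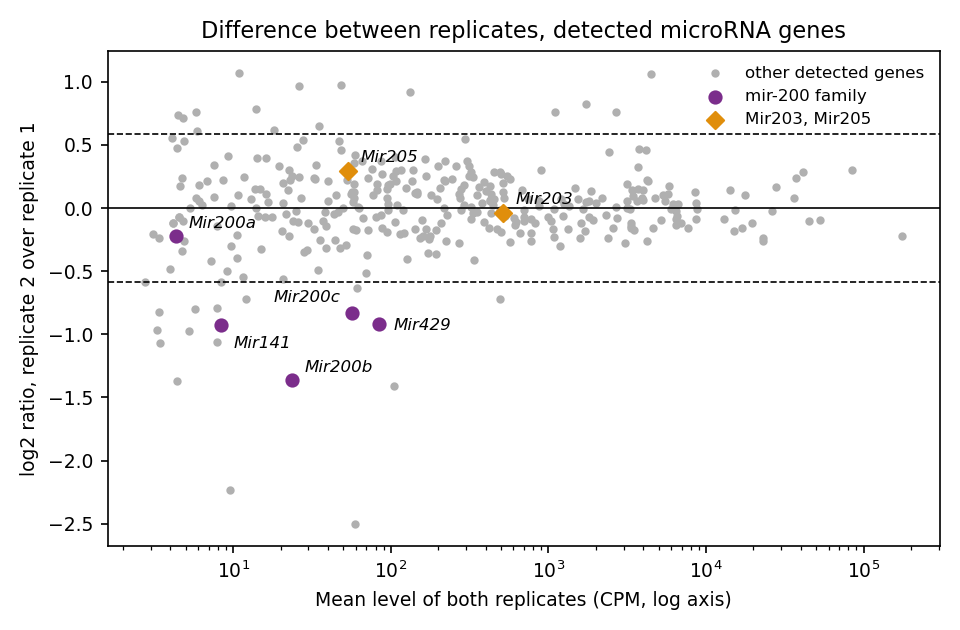
Log2 ratio of replicate 2 over replicate 1 against the mean level in CPM (log axis) for the 356 detected microRNA genes, with the mir-200 family as filled circles, Mir203 and Mir205 as diamonds and dashed lines at 1.5-fold. Mir200b, Mir141, Mir429 and Mir200c lie below the lower line, and Mir200a, Mir203 and Mir205 lie between the lines.

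Lists for other tissues were set beside this difference. The list for choroid plexus and multiciliated epithelium, led by Mir449a and Mir204, was higher in replicate 2, at 9694 CPM against 4991 in replicate 1 (log2 ratio 0.96), with 5 of 6 detected genes over 1.5-fold higher. The muscle list, led by the cardiac and slow-muscle Mir208b and the skeletal Mir206, had 152 and 90.1 CPM (-0.76), with 2 of 3 detected genes over 1.5-fold lower and 1 higher, while Mir1a-1, Mir133a-1 and Mir133a-2 were at 0 in both. The Mir133a copies share 17 stretches of 20 bases with another hairpin, so reads on these are set aside as multimapping and their values are uncertain. Mir1a-2 matched no row by name and so was not compared with Mir1a-1, whose value is uncertain too. In the mesenchyme list, led by Mir143 and Mir140, the sums were 11311 and 10213 CPM (-0.15), with 1 of 6 over 1.5-fold lower. The blood list, led by Mir155 and Mir223, had 497 and 460 CPM (-0.11), with 1 of 6 over 1.5-fold lower, the erythroid Mir451a. Mir451a stood at -1.41, while Mir144 of the same cluster stood at 0.04 and Mir486 at -0.30. The endoderm list, led by the endocrine Mir375 and by Mir217, had 1967 and 1671 CPM (-0.23), with none of 7 past 1.5-fold. The part of these tissues in the mir-200 difference was not tested.

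Apart from the choroid plexus and multiciliated list above, the epithelial lists had log2 ratios near 0. The sensory epithelium list, Mir182, Mir183 and Mir96, summed to 10857 and 11784 CPM (0.12). The list of other epithelia, led by Mir21a and Mir31, had 3955 and 4135 CPM (0.06). Its sum was nearly all Mir21a, with a mean of 3997 CPM beside 46.0 CPM for Mir31. Mir184, also listed, was not detected, at 7 and 4 counts. None of the 5 detected genes of these lists was past 1.5-fold in either direction. As a check of the tissue, the Hox cluster list, led by the hindbrain and trunk microRNAs Mir10a and Mir10b, had 111478 and 135699 CPM (0.28). In it 4 of 6 genes were detected, and it does not tell hindbrain from trunk. The neuronal list, led by Mir137 and Mir153, had 11421 and 11520 CPM (0.01), with 9 of 13 rows detected. Its best known members, the Mir124a copies, had at most 23 counts in either library, but 24 to 30 stretches of 20 bases in each occur in another hairpin, so their values are uncertain and do not check the tissue. The mir-200 family, at 178 CPM, was thus far below the neuronal list, and also below the sensory epithelium list.

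**Figure D4:**
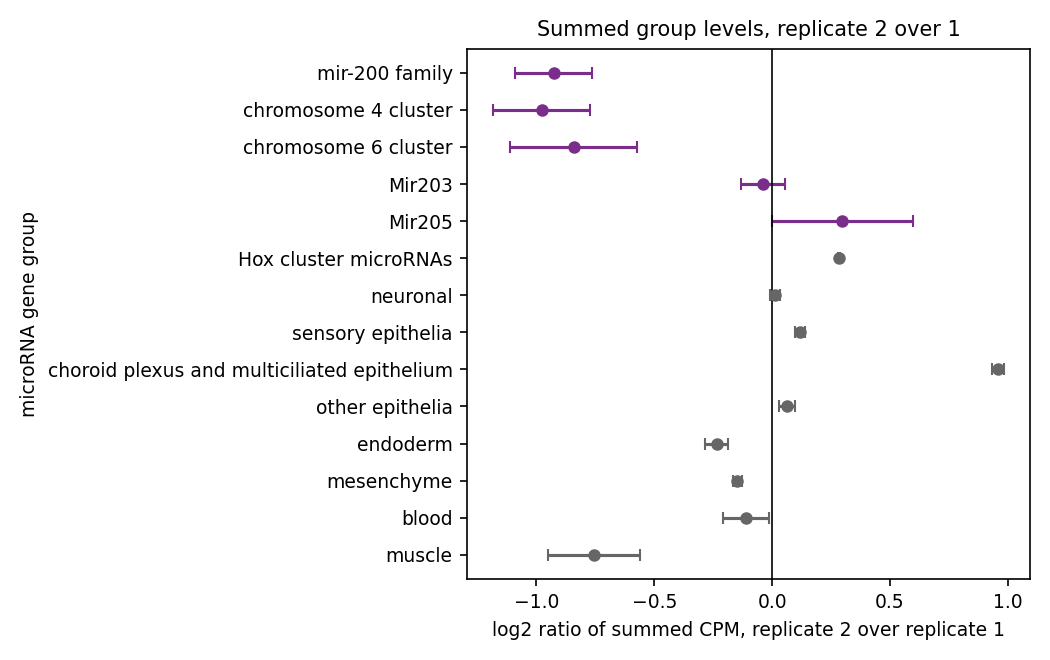
Log2 ratio of summed CPM, replicate 2 over replicate 1, for the epithelial microRNA groups (first 5 rows) and for 9 lists of microRNA genes of position, neurons and other tissues, with bars for the 95% exact binomial interval of counting error. The mir-200 family and both of its clusters lie between -0.84 and -0.98, the muscle list at -0.76, and the choroid plexus and multiciliated list at 0.96.

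By level in both libraries, the detected genes nearest to Mir203 were Mir325, Mir186 and Mir101a, at 530, 496 and 520 CPM on average. Nearest to Mir205 were Mir592, Mir34a and Mir702, at 52.6, 58.1 and 56.0 CPM. Nearest to Mir200c were Mir679, Mir539 and Mir302c, at 61.5, 52.0 and 47.3 CPM. Nearness is the Euclidean distance in log2 CPM over the 2 libraries, which was at most 0.09 for Mir203, 0.16 for Mir205 and 0.47 for Mir200c. With 2 libraries it says only that the levels were alike.

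The start of Gm13648, which spans the chromosome 4 cluster, is shown because the mir-200 genes are known targets of ZEB1 and ZEB2, which bind E-boxes of the form CACCTG. The window runs from 250 bases before to 50 bases after the annotated start (RefSeq, GRCm38.p6, chr4:156059753-156060052, minus strand), with matches to CACCTG or its reverse complement CAGGTG in capitals.
Gm13648 promoter: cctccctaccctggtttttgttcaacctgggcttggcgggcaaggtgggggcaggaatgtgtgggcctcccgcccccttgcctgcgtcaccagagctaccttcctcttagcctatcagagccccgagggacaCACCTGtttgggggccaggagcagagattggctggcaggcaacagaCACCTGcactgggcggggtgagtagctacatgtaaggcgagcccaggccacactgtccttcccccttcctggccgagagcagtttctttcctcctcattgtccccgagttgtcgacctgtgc

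The window held 2 matches, which began 118 and 72 bases before the start. At least 1 match, on either strand, was present in 20.2% of the 32851 promoter windows of the table, and 2 or more in 2.88%. A match describes letters in this window, and no binding was measured in these samples.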

How the data were processed

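The values the authors deposited are raw counts of reads on each microRNA gene, in a table for each library, from reads aligned to mm10 and counted on GENCODE M4, per the README text deposited with them. The aligner and the counter were not given in the sources used here. The column whose reads match the annotated strand, 98.1% of the counts in each library, was used, and the 4 summary rows were left out. Names and positions came from GENCODE M21 (GRCm38, the assembly mm10 denotes), and all 7 hairpins had sequences in the RefSeq tables with equal coordinates.

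CPM were computed from gene row totals with Python 3.11.15 and scipy 1.17.1. Detection needed 10 counts in both libraries. Ratios used these totals, with edgeR 4.0.16 trimmed-mean (TMM) library sizes and DESeq2 1.42.0 size factors as alternatives, and were checked on simulated counts. With 1 group, no test between conditions could be run. Members and lists were chosen with earlier results of these data known. Non-members were named as the 2 highest genes of each list and the 3 nearest in level to Mir203, Mir205 and Mir200c. Mir451a, Mir144, Mir486, Mir184, Mir214, Mir1a-1 and the Mir124a and Mir133a copies were named outside this rule, after their values were seen, as was Mir679 beside the ratios. Mir9-1, Mir142 and Mir1a-2 were listed but matched no row by name.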

Additional observations from a re-analysis of the deposited data

Results flagged for a closer look

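At Mir203 the opposite strand, which the levels above do not use, held 33 counts in replicate 1 and 69 counts in replicate 2, more than the 3 counts that a count of 0 allows. That was 2.07% of the reads at this gene in replicate 1 (95% exact Clopper-Pearson interval 1.43 to 2.90) and 2.94% in replicate 2 (2.29 to 3.70), beside 1.88% and 1.90% over all gene rows. The interval of replicate 1 held the share of all rows, and that of replicate 2 lay above it. Where these reads came from was not tested, and overlap with other microRNA genes was not searched. Mir205 had 2 and 0 counts on the opposite strand, and the mir-200 genes had none in either library. For Mir429, the most counted of them, 0 of 332 and 0 of 264 reads allow a share of up to 1.10% and 1.39% (upper Clopper-Pearson bounds). The hairpin of Mir203 is shown with its guide arm in capitals.
Mir203 hairpin: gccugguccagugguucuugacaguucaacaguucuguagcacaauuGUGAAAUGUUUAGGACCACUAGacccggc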

How the results depend on the processing

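With TMM library sizes, DESeq2 size factors, counts on either strand, log2(CPM + 1) or a 2-fold threshold, as far as each applied, 62 of 63 values for 18 results stayed within the spread between replicates, the counting interval or 1.5 times the reported count, and none changed sign. The 5 alternatives for the number detected could only keep it at 7, and say nothing of stability. The exception was the number of members lower in replicate 2, which was 4 at 1.5-fold and 1 at 2-fold (Mir200b). The log2 ratio of the mir-200 sum ran from -0.95 to -0.92. TMM factors were 0.9955 and 1.0045 in replicates 1 and 2, so rescaling shifted every ratio by the same small amount. As the mir-200 genes had no reads on the opposite strand, counting either strand changed only their totals. Levels cannot change sign. Most of these values could thus hardly move, and their stability is a weak check. Each library alone gave a summed level of 688 to 801 CPM for the 7 genes and 123 to 233 CPM for the family, so the family's mean rests on libraries that differ by 1.90-fold. A single library of 2 always lies within 1 SD of their mean, so these levels are no check either, and Mir200b moved most, from 23.8 CPM to 13.3 CPM (1.79-fold) without replicate 1. Ratios need both libraries and could not be recomputed without one. No paired analysis was possible because there is 1 group. Depth limits Mir200a and Mir141, with 14 to 33 counts in a library.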
